A study of Arabidopsis thaliana with 4 samples.

Results

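Floral organs and seeds leave the plant through abscission zones, where a secreted peptide is read by receptor kinases and enzymes then dissolve the pectin between cells. In Arabidopsis thaliana the peptide IDA (INFLORESCENCE DEFICIENT IN ABSCISSION) binds the receptor-like kinases HAE (HAESA) and HSL2 (HAESA-LIKE 2), which pass the signal through a MAP kinase cascade. Among the enzymes at the end of the pathway are the polygalacturonases ADPG1, ADPG2 and QRT2, which cut pectin in dehiscence and abscission zones. The receptor-like cytoplasmic kinase CST (CAST AWAY) restrains organ abscission. A further reason to look at these genes in the funiculus, the stalk between seed and fruit wall, is that seeds of seedstick (stk) mutants do not detach from it normally. STK itself codes for a MADS-box factor that specifies ovules.

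The 7 genes IDA (AT1G68765), HAE (AT4G28490), HSL2 (AT5G65710), CST (AT4G35600), ADPG1 (AT3G57510), PGAZAT (AT2G41850) and QRT2 (AT3G07970) were chosen by locus identifier out of 37051 loci in the count table. The rule uses no measured value, but it was set with earlier results of these data known. PGAZAT is the reference symbol of the gene also called ADPG2. Polyadenylated RNA came from dissected funiculi of flowers at stage 17, with 100 funiculi per library. The 2 genotypes were stk mutants and wild-type plants (wt, ecotype Columbia), with 2 biological replicates each, all grown at 22 °C with 16 h of light and 8 h of dark. The labels name neither the stk allele nor its background, and each library is a pool of funiculi. The stk libraries held 4033589 and 12099218 counts, and the wild-type libraries 5757066 and 10229588. Levels are given in CPM, the counts of a gene scaled to library size with TMM factors, and 3 counts equal 0.774 and 0.246 CPM in the stk libraries and 0.538 and 0.275 CPM in the wild-type libraries.

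STK itself stood at 237 and 325 CPM in stk and at 373 and 554 CPM in wild type, so its transcript was read in all 4 libraries and gives no check of the genotypes. AT4G09950, a gene of the opposite strand, overlaps STK by 186 bases, and the kit is one without strand information. AT4G09950 had 90 and 353 counts in stk and 64 and 191 in wild type. STK had 918 and 3960 counts in stk and 2076 and 6049 in wild type. Whether reads of AT4G09950 had a part in the counts of STK was not tested. The 8 vascular marker genes (among them the phloem sucrose carrier gene SUC2) were all read in every library and summed to 1420 and 551 CPM in stk and to 1110 and 281 CPM in wild type. Among them the sieve element gene SEOR1 was 15.6-fold higher in stk and passed DESeq2 (adjusted p = 2.16e-05) but not edgeR (0.329). Its relative SEOa was higher 4.04-fold (DESeq2 adjusted p = 0.0505). The xylem cellulose synthase gene IRX3 stood at 305 and 22.6 CPM in stk and at 39.3 and 5.58 CPM in wild type. Its means lay 7.30-fold apart, but the genotypes overlapped (DESeq2 adjusted p = 0.431). Ratios of stk over wild type were 2.50 for XCP2, 1.84 for VND7, 0.913 for SUC2, 0.770 for APL and 0.689 for XCP1. The 16 markers of embryo and endosperm summed to 157 and 10.9 CPM in stk and to 252 and 6.22 CPM in wild type. They differed among themselves. FIS2 stood at 29.7 and 8.37 CPM in stk and at 5.2 and 4.12 CPM in wild type. LEC1 had 20 and 3 counts in stk and 0 and 0 in wild type. CRU3 stood at 1.81 and 0 CPM in stk and at 94.9 and 0.0915 CPM in wild type. SESA3 stood at 46.2 and 0 CPM in stk and at 74.3 and 0.366 CPM in wild type. The embryo regulator gene ABI3 and the endosperm genes PHE1 and IKU2 were at 0 in all 4 libraries. The 11 markers of pollen and pollen tubes summed to 919 and 337 CPM in stk and to 484 and 475 CPM in wild type, and the anther gene A7, the one tapetum marker, was at 0 throughout. The 6 seed coat markers summed to 122 and 105 CPM in stk and to 49.2 and 78.8 CPM in wild type. Most of each sum was MUM4, with 96.0 and 77.3 CPM in stk and 32.3 and 74.1 CPM in wild type. The other seed coat markers differed among themselves. MUM2 and TT10 were higher in both stk libraries, and TT12 (at most 7 counts) was lower in both. BAN had 0 and 82 counts in stk and 56 and 40 in wild type. AT3G50990 was read in stk replicate 1 alone, with 9 counts. The part of these cell types in the results below was not tested.

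Of the 7 genes, 4 had enough counts for the test over all genes (HAE, HSL2, CST and ADPG1). IDA, PGAZAT and QRT2 were too rarely read, each with at most 4 counts outside stk replicate 2. None of the 4 tested genes passed edgeR's quasi-likelihood test at a false discovery rate of 0.05, where the background over 18092 genes was 0.00553% (1 gene). Limma-voom called none of the 4 (background 0.205%), and DESeq2 called ADPG1 alone, lower in stk (background 0.903% in either direction and 0.269% lower). At an unadjusted p under 0.05 edgeR gave 1 of the 4, ADPG1, against 3.36% of all genes. RNA was measured in bulk, so fewer cells that express a gene and less RNA per cell cannot be told apart.

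**Figure D1:**
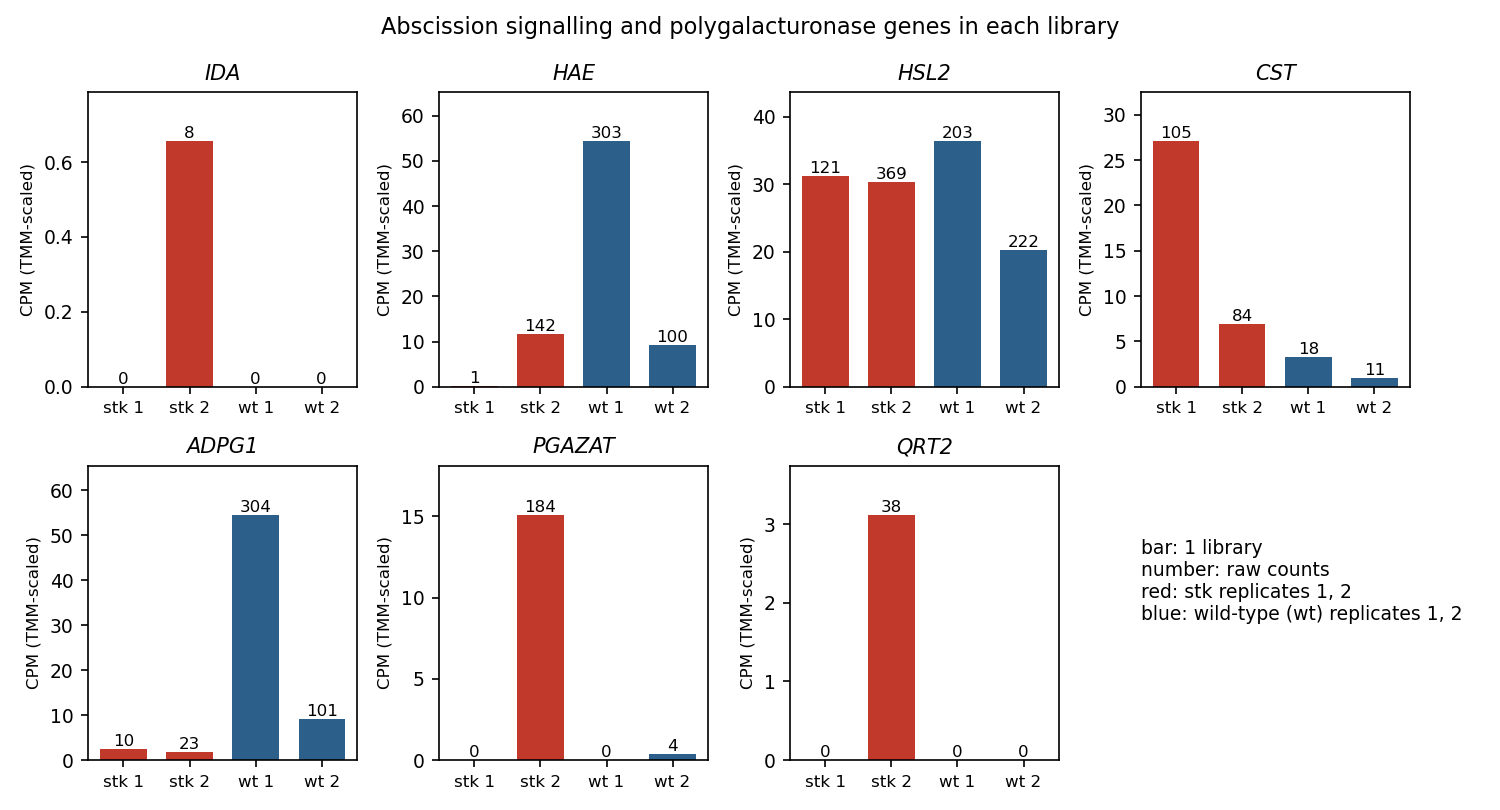
Level of each gene in CPM (y axis, linear and different for each panel) in the 2 stk and the 2 wild-type libraries, with the raw count printed on each bar. ADPG1 was lower and CST higher in both stk libraries, the stk values of HSL2 lay between its wild-type values, and IDA, PGAZAT and QRT2 were read almost entirely in stk replicate 2.

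The peptide gene IDA had 0 and 8 counts in stk and 0 and 0 counts in wild type, or 0 and 0.656 CPM in stk. The 8 counts carry an exact 95% Poisson interval of 3.45 to 15.8 counts, or 0.283 to 1.29 CPM, which covers counting error only. At that level the expected counts are 2.54 for stk replicate 1, 3.66 for wild-type replicate 1 and 7.17 for wild-type replicate 2. The first of these is below the floor of 3 counts. Pooled over both stk libraries IDA stood at 0.498 CPM. A floor of 3 counts over both wild-type libraries is 0.182 CPM, and the ratio to it was 2.74. That ratio leaves out the counting error of the 8 counts, all of which came from stk replicate 2.

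The reference names 5 further IDA-like (IDL) genes of the list, which encode peptides with the same conserved C-terminal motif. IDL3 had 39 counts, IDL5 16 and IDL4 2 in stk replicate 2, and all 3 had 0 counts in stk replicate 1 and in both wild-type libraries. IDL2 was the exception, with 34 and 13 counts in stk and 0 and 1 in wild type. Scaled to library size these were 8.78 and 1.07 CPM in stk, against 0 and 0.0915 CPM in wild type. IDL1 was at 0 in all libraries. None of these 6 peptide genes had enough counts for edgeR's filter, and DESeq2 did not call IDL2 (adjusted p = 0.471).

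The receptor gene HAE varied more between libraries of a genotype than between genotypes. It stood at 0.258 and 11.7 CPM in stk (1 and 142 counts) and at 54.4 and 9.15 CPM in wild type (303 and 100 counts). The genotypes overlapped, because stk replicate 2 lay above wild-type replicate 2. The stk libraries differed 45.1-fold (exact 95% interval 7.97 to 1800, counting error only, since it rests on 1 count) and the wild-type libraries 5.94-fold, where the median gene differed 1.65-fold and 1.58-fold. Means of 5.96 ± 8.06 CPM in stk and 31.8 ± 32.0 CPM in wild type (SD, n = 2 each) lay 5.33-fold apart, with a log2 fold change of -2.37 ± 1.45 (SE) and an edgeR adjusted p of 1. Leaving out a library gave -1.42 (stk replicate 1), -6.84 (stk replicate 2), -0.58 (wild-type replicate 1) and -3.12 (wild-type replicate 2). Once stk replicate 2 was left out DESeq2 called HAE lower in stk (log2 fold change -6.92, adjusted p = 0.0218), where 3.14% of all genes were called. The shares of all genes that DESeq2 called with another library left out were 0.355% (stk replicate 1), 1.44% (wild-type replicate 1) and 1.64% (wild-type replicate 2).

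HSL2, the receptor that acts redundantly with HAE, stood at 31.2 and 30.3 CPM in stk and at 36.4 and 20.3 CPM in wild type, and the stk values lay between the wild-type values. The mean was 30.8 ± 0.677 CPM in stk and 28.4 ± 11.4 CPM in wild type (SD, n = 2 each). The log2 fold change was 0.12 ± 0.57 (SE; edgeR adjusted p = 1), and leaving out wild-type replicate 2 turned it to -0.24. HSL2 had 121 and 2.60 times the CPM of HAE in stk and 0.67 and 2.22 times in wild type. The 121 rests on 1 count of HAE and has an exact 95% interval of 21.3 to 4820, for counting error only. Coding lengths of 3000 and 2982 bases make this ratio nearly the same per length. The coding sequences of HAE and HSL2 share 52.8% of their aligned bases and no identical stretch above 14 bases.

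Among the other receptor-complex genes, HSL1, a further receptor of this family, stood at 75.6 and 97.6 CPM in stk and at 47.4 and 59.0 CPM in wild type, a log2 fold change of 0.70 ± 0.42 (SE). The SERK family co-receptors of HAE and HSL2 had log2 fold changes of -0.12 (SERK1), -0.34 (SERK2), -0.09 (BAK1) and 0.07 (SERK4). Of the 7 tested genes for receptors and co-receptors 3 were positive and 4 negative, with a median of -0.09, where all genes tested had a median of -0.08. Leaving out wild-type replicate 1 gave a median of 0.58 for the 7 (all genes -0.04), and leaving out wild-type replicate 2 gave -0.36 (all genes 0.07). None passed edgeR, limma-voom or DESeq2.

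In the MAP kinase cascade MPK3, which acts redundantly with MPK6, stood at 366 and 431 CPM in stk and 391 and 438 CPM in wild type. MPK6 stood at 45.4 and 46.4 CPM in stk and at 61.6 and 58.7 CPM in wild type. The kinase kinase genes MKK4 and MKK5 had log2 fold changes of -0.57 ± 0.46 and 0.45 ± 0.53 (SE). The phosphatase gene MKP1, whose product inactivates MAP kinases, stood at 76.7 and 60.8 CPM in stk and at 46.8 and 38.3 CPM in wild type. The 5 genes had a median log2 fold change of -0.06, and none passed any of the 3 tools.

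CST was higher in both stk libraries than in either wild-type library. It stood at 27.1 and 6.89 CPM in stk (105 and 84 counts) and at 3.23 and 1.01 CPM in wild type (18 and 11 counts). Means of 17.0 ± 14.3 CPM in stk and 2.12 ± 1.57 CPM in wild type (SD, n = 2 each) gave an 8.02-fold higher level in stk, and both stk libraries lay above both wild-type libraries, as for 15.9% of all genes tested. The log2 fold change of 3.01 ± 1.41 (SE) did not pass (edgeR unadjusted p = 0.067, adjusted p = 1; DESeq2 adjusted p = 0.548). Leaving out stk replicate 1 gave 1.73 and leaving out wild-type replicate 1 gave 4.07. In both genotypes replicate 1 was the higher library, 3.93-fold in stk and 3.21-fold in wild type.

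CST belongs to a group of factors that tune receptor traffic in abscission. Others of them, SOBIR1 (also called EVERSHED), a receptor-like kinase, and AGD5 (NEVERSHED), an ARF GTPase-activating protein of membrane traffic, had log2 fold changes of 0.28 ± 0.45 and 0.30 ± 0.43 (SE). SOBIR1 stood at 99.1 and 140 CPM in stk and at 125 and 71.8 CPM in wild type. AGD5 stood at 70.0 and 53.7 CPM in stk and at 52.9 and 47.2 CPM in wild type.

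ADPG1 had the largest log2 fold change in size of the 4 tested genes and was lower in both stk libraries than in either wild-type library. It stood at 2.58 and 1.89 CPM in stk (10 and 23 counts) and at 54.6 and 9.24 CPM in wild type (304 and 101 counts). Values in that order, with the genotypes not overlapping, occurred for 16.6% of all genes tested. Means of 2.23 ± 0.491 CPM in stk and 31.9 ± 32.0 CPM in wild type (SD, n = 2 each) correspond to a 14.3-fold lower level in stk. The stk libraries were close to each other (1.37-fold apart), while the wild-type libraries differed 5.90-fold.

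The test of ADPG1 depended on the tool. The log2 fold change was -3.84 ± 1.12 (SE), with an unadjusted edgeR p of 0.00953 and an adjusted p of 0.89. DESeq2 called it at the edge of its threshold (log2 fold change -3.86, adjusted p = 0.0498), limma-voom did not (adjusted p = 1), and edgeR without a filter on low counts gave an adjusted p of 0.0579. DESeq2 no longer called ADPG1 without wild-type replicate 1 (log2 fold change -2.07, adjusted p = 1), stk replicate 1 (adjusted p = 0.186) or stk replicate 2 (adjusted p = 0.117), and called it without wild-type replicate 2 (log2 fold change -4.64, adjusted p = 0.0134).

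Wild-type replicate 1 held the highest levels of both HAE and ADPG1. The raw counts of these genes were nearly equal in each wild-type library, 303 and 304 in replicate 1 and 100 and 101 in replicate 2. Their levels per kilobase of coding sequence differed, at 18.1 and 3.05 CPM for HAE and 42.1 and 7.13 CPM for ADPG1. In stk the raw counts of HAE and ADPG1 were 1 and 10 in replicate 1 and 142 and 23 in replicate 2. The value of HAE in stk replicate 1 thus rests on 1 count. Wild-type replicate 1 was also the library with the highest sum of embryo and endosperm markers, at 252 CPM, although stk replicate 1, where HAE and ADPG1 were low, came next at 157 CPM. Whether seed RNA had a part in their levels was not tested.

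**Figure D2:**
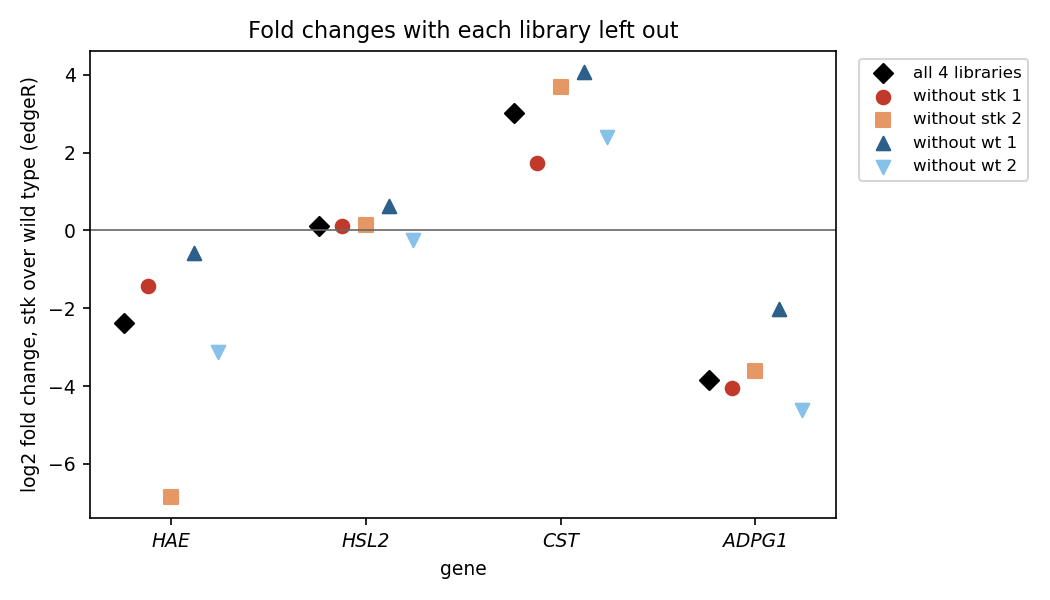
Log2 fold change of stk over wild type in edgeR (y axis) for the 4 tested genes (x axis), with all 4 libraries and with each library left out. CST stayed above 0 and HAE and ADPG1 below 0 in all fits shown, while HAE ranged from -6.84 to -0.58 and HSL2 changed sign without wild-type replicate 2. The genotypes of CST and ADPG1 did not overlap, so leaving out a library could hardly change their sign.

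PGAZAT, the closest relative of ADPG1 among the 7, was read almost entirely in stk replicate 2. It had 0 and 184 counts in stk and 0 and 4 counts in wild type, or 0 and 15.1 CPM in stk and 0 and 0.366 CPM in wild type. The 184 counts carry an exact 95% Poisson interval of 158 to 213 counts. At the level of stk replicate 2 the expected counts are 58.5 for stk replicate 1 and 84.1 and 165 for the wild-type libraries, so the 0 counts of both replicate 1 libraries and the 4 counts of wild-type replicate 2 lay below them. The genotypes overlapped because stk replicate 1 was at 0, and edgeR without a filter gave a log2 fold change of 5.18 ± 2.99 (SE; adjusted p = 1).

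QRT2 was read in stk replicate 2 alone, with 38 counts (exact 95% Poisson interval 26.9 to 52.2 counts) or 3.12 CPM. At that level the expected counts are 12.1 for stk replicate 1 and 17.4 and 34.1 for the wild-type libraries, and all 3 held 0. Pooled over both stk libraries QRT2 stood at 2.37 CPM, 13.0 times the same wild-type floor of 0.182 CPM. This ratio likewise leaves out the counting error of the 38 counts, all from stk replicate 2. QRT2 overlaps MAPKKK6 on the opposite strand by 11 bases. MAPKKK6 had 80 and 301 counts in stk and 69 and 444 in wild type. Whether its reads had a part in the counts of QRT2 was not tested.

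Reads of ADPG1 and PGAZAT could in principle be exchanged by the counting, since the genes are paralogs. In the RefSeq annotation of TAIR10.1 their coding sequences of 1296 and 1302 bases are 76.1% identical over 1290 aligned bases. QRT2 is 56.9% identical to ADPG1 and 58.4% to PGAZAT. Untranslated regions were not compared. The longest stretch that ADPG1 and PGAZAT coding sequences share is shown, since a longer coding read cannot match both without a mismatch:

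ADPG1 and PGAZAT: aagaatccgatcataatcgacca

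It measures 23 bases and lies on the minus strand in exons of both genes, at chr3:21283869-21283891 in ADPG1 and at chr2:17462251-17462273 in PGAZAT (TAIR10.1). It occurs nowhere else on the 5 nuclear chromosomes. The read length is not given in the sources used here.

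IDA and QRT2 were among several abscission genes read in stk replicate 2 and nowhere else, and the counts here were made after this had been seen in them. Of 49 genes in the abscission pathway lists, 47 had a count in any library. IDA, IDL3, IDL4, IDL5, QRT2, IND, BOP2 and DOF4.7 (8 of the 47) were read in stk replicate 2 alone, where 5.53% of all 23452 genes with a count were. With at least 8 counts there were 4 (IDA, IDL3, IDL5 and QRT2), against 1.18% of all genes. At the count of QRT2, 38, or more, 10 genes of the whole table (0.0426%) were read in stk replicate 2 alone, and QRT2 and IDL3 were 2 of them. These limits are the counts of IDA and QRT2 themselves, so the shares describe this library and test nothing.

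The other libraries held fewer such genes. Wild-type replicate 2 held 1 pathway gene alone, the polygalacturonase gene AT3G26610 (PGX1) with 18 counts, and stk replicate 1 and wild-type replicate 1 held none. Stk replicate 2 was the deepest library, and 276 genes of the table were read in it alone with at least 8 counts, against 80 in stk replicate 1 and, for wild type, 127 in replicate 1 and 183 in replicate 2. At 38 or more counts the order differed, with 10 genes in stk replicate 2 alone, 13 in stk replicate 1, 9 in wild-type replicate 1 and 15 in wild-type replicate 2. The sum of the pollen markers was lowest in stk replicate 2 (337 CPM), although 10 of the 11 were read in it, as in wild-type replicate 2. The 1 tapetum marker was at 0 in all libraries. Whether another tissue had a part in the counts of stk replicate 2 was not tested. Among the genes read in it alone, BOP2 (a BTB-ankyrin protein needed to form floral abscission zones), DOF4.7 (a zinc finger factor) and IND (a bHLH factor of the valve margin) had 2, 3 and 2 counts.

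**Figure D3:**
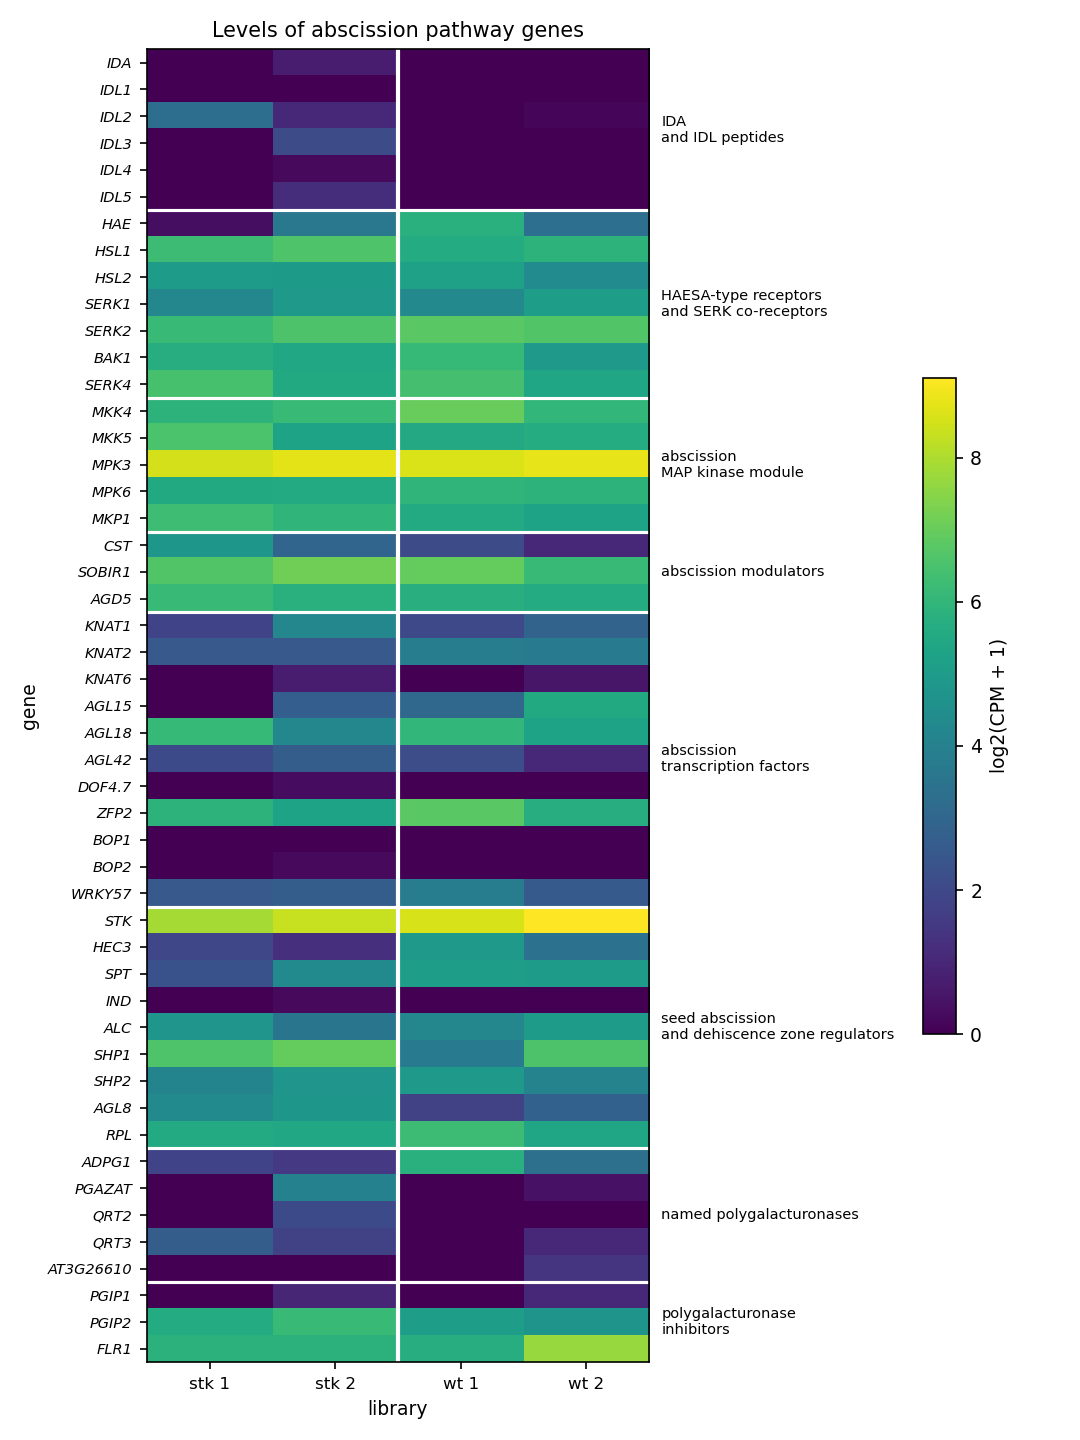
Level of 49 abscission pathway genes (y axis, grouped by role) in the stk and wild-type libraries (x axis), coloured by log2(CPM + 1). IDA, IDL3, IDL4, IDL5, PGAZAT and QRT2 are above 0 mainly in the column of stk replicate 2, while the MAP kinase and co-receptor genes have counts in all columns.

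Per kilobase of coding sequence the order of the genes differed between the genotypes. In stk the mean was highest for CST (13.5 CPM per kilobase), then HSL2 (10.3), PGAZAT (5.80), HAE (1.99), ADPG1 (1.72), IDA (1.40) and QRT2 (1.18). In wild type it was highest for ADPG1 (24.6 CPM per kilobase), then HAE (10.6), HSL2 (9.52), CST (1.68) and PGAZAT (0.141), with IDA and QRT2 at 0. In stk each gene overlapped its neighbour in this order. CST at 21.5 and 5.46 CPM per kilobase spanned HSL2 at 10.5 and 10.2 in stk, and HSL2 lay within the range of PGAZAT at 0 and 11.6. In wild type ADPG1 at 42.1 and 7.13 CPM per kilobase overlapped HAE at 18.1 and 3.05, and HSL2 at 12.2 and 6.81 lay inside the range of HAE. Below them HSL2 did not overlap CST at 2.56 and 0.797, nor did CST overlap PGAZAT at 0 and 0.281.

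Upstream regulators of abscission and dehiscence zones were read beside them. HEC3, a bHLH factor, stood at 2.84 and 1.39 CPM in stk and at 29.3 and 9.61 CPM in wild type, a log2 fold change of -3.21 ± 1.26 (SE; edgeR unadjusted p = 0.035). FRUITFULL (AGL8), a MADS-box factor of fruit valves, stood at 19.4 and 27.6 CPM in stk and at 2.51 and 6.04 CPM in wild type, a log2 fold change of 2.44 ± 0.99 (unadjusted p = 0.0401). These were the genes of that list with an unadjusted p under 0.05, against 1.14% of all genes lower and 2.22% higher. SPT, a bHLH factor of carpel and valve margin development, stood at 3.87 and 19.3 CPM in stk and at 33.6 and 31.4 CPM in wild type. SHP1, a MADS-box factor of valve margins, stood at 97.6 and 123 CPM in stk and at 12.9 and 94.0 CPM in wild type (log2 fold change 1.04 ± 0.79, SE), and DESeq2 called it when wild-type replicate 2 was left out (log2 fold change 3.07, adjusted p = 0.00345). Of the 8 tested regulators of seed abscission and dehiscence zones 2 were positive and 6 negative, with -0.40 as the median log2 fold change, and none passed edgeR, limma-voom or DESeq2 on all 4 libraries.

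Of 11 transcription factor genes of floral abscission 7 were tested, 2 positive and 5 negative, with a median log2 fold change of -0.71. That median changed sign, to 0.09 without wild-type replicate 1, to 0.13 in DESeq2 and to 0.14 in edgeR without a filter, the last 2 over 10 genes. AGL15, a MADS-box factor that delays abscission when overexpressed, stood at 0 and 5.66 CPM in stk and at 7.54 and 46.0 CPM in wild type (log2 fold change -3.17 ± 1.66, SE; edgeR unadjusted p = 0.0942), and DESeq2 called it when stk replicate 2 was left out (log2 fold change -9.12, adjusted p = 0.0173). KNAT1 (BREVIPEDICELLUS), a homeobox factor that restrains abscission downstream of HAE and HSL2, stood at 2.58 and 17.5 CPM in stk and at 3.05 and 6.50 CPM in wild type. KNAT2, which acts in the opposite sense, stood at 4.90 and 4.84 CPM in stk and at 13.6 and 12.3 CPM in wild type. None of the 7 passed with the 3 tools on all 4 libraries.

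**Figure D4:**
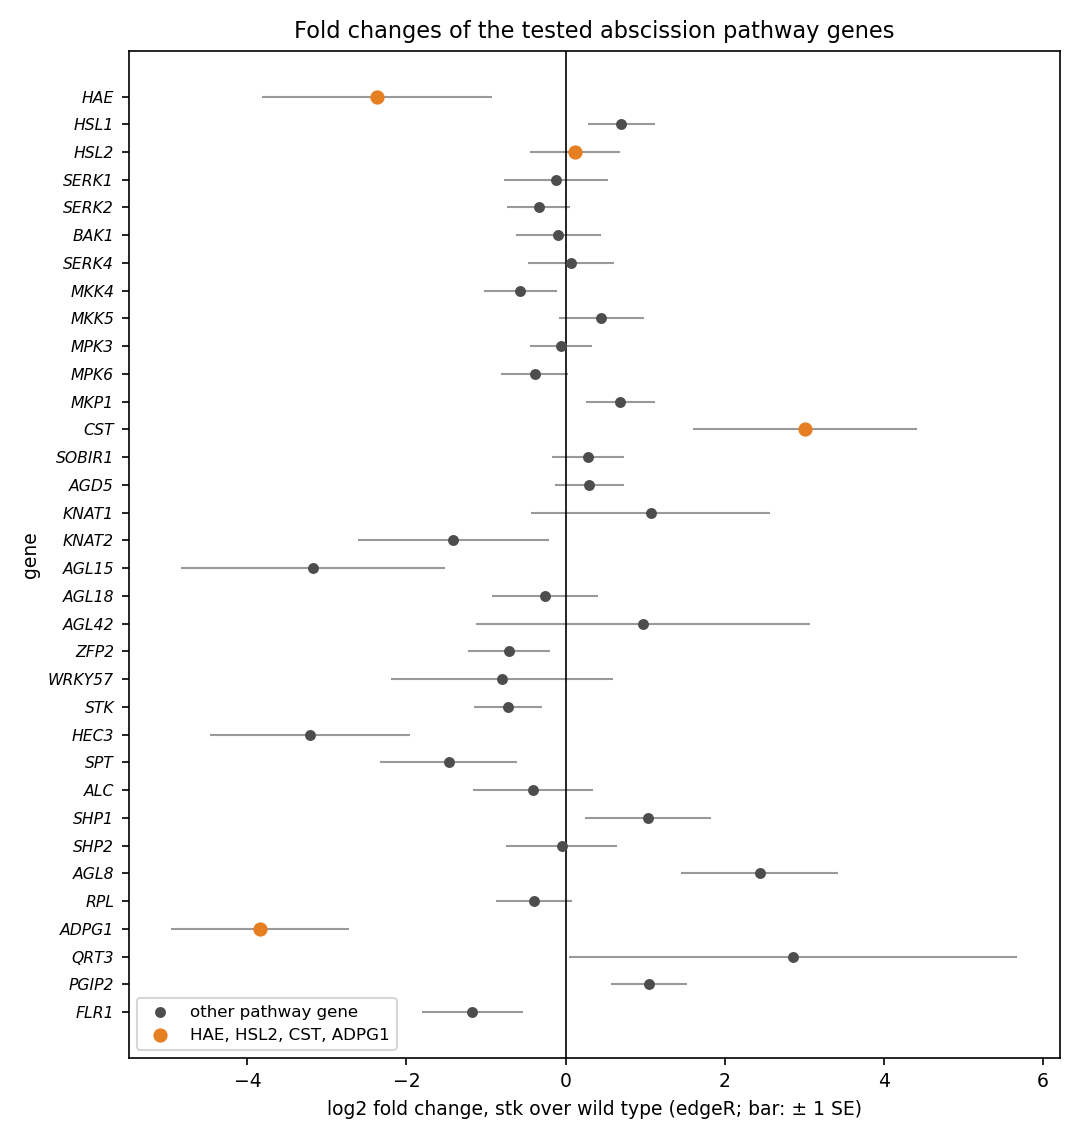
Log2 fold change of stk over wild type in edgeR (x axis, with 1 SE on either side) for the 34 tested abscission pathway genes (y axis). ADPG1 at -3.84 and CST at 3.01 lie at the ends, 14 genes are positive and 20 negative, and none passed the test over all genes.

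Over all pathway lists 34 genes were tested, 14 positive and 20 negative, and their median log2 fold change was -0.10, beside -0.08 for all genes. With wild-type replicate 1 left out it stood at 0.25, with stk replicate 2 left out at -0.26, and it was positive in DESeq2 (0.11) and in edgeR without a filter (0.13), both over 47 genes. Both stk libraries lay above both wild-type libraries for 8 of them (15.9% of all genes) and below for 8 (16.6%). None passed edgeR or limma-voom on all 4 libraries, and DESeq2 called 1 lower, ADPG1.

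ADPG1 was also set beside the other polygalacturonases. The reference annotates 70 loci of the table with polygalacturonase activity, of which 27 had no counts and 31 were tested. Log2 fold changes were positive for 26 of these and negative for 5 (median 0.41), where all genes tested had 8292 positive and 9800 negative, and that of ADPG1 was the lowest. Leaving out a library gave medians of 0.53 (stk replicate 1), 0.73 (stk replicate 2), 0.28 (wild-type replicate 1) and 0.84 (wild-type replicate 2). The medians of all genes in these fits were, in that order, -0.01, -0.24, -0.04 and 0.07. None passed edgeR over all genes. Below an unadjusted edgeR p of 0.05, as 3.36% of all genes were, lay ADPG1, AT1G02460 (25.0 and 10.3 CPM in stk, 55.1 and 48.8 CPM in wild type), AT1G70500 (122 and 24.9 CPM in stk, 13.1 and 0.458 CPM in wild type) and AT3G16850 (34.6 and 83.8 CPM in stk, 17.6 and 23.8 CPM in wild type).

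By level per kilobase of coding sequence ADPG1 was number 31 of the 70 in stk and number 11 in wild type. PGA4 was the most abundant member per length in both genotypes, at 777 and 259 CPM in stk and at 423 and 449 CPM in wild type. The family summed to 2330 and 1330 CPM in stk and to 1460 and 1490 CPM in wild type, and both PGA4 and the pollen markers (919 and 337 CPM in stk, 484 and 475 CPM in wild type) were highest in stk replicate 1. The part of pollen tubes in the family's sum was not tested.

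Among the other pectin genes of the lists QRT3, which encodes a polygalacturonase of pollen mother cell walls, stood at 5.42 and 2.38 CPM in stk and at 0 and 1.01 CPM in wild type (log2 fold change 2.86 ± 2.82, SE). PGIP2, an inhibitor of polygalacturonases, stood at 47.5 and 71.6 CPM in stk and at 32.3 and 25.2 CPM in wild type (log2 fold change 1.05 ± 0.48, SE; edgeR unadjusted p = 0.0613). PGIP1, its neighbour in the family, had 0 and 12 counts in stk and 0 and 11 in wild type. FLR1, of the same protein family, stood at 57.6 and 56.8 CPM in stk and at 50.4 and 207 CPM in wild type.

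The genes most like each tested member were found by the Euclidean distance between log2(CPM + 1) values over the 4 libraries. The nearest to ADPG1 were MEE23 (AT2G34790, annotated as an FAD-binding Berberine family protein) at a distance of 0.84 and HEC3 at 0.92, and no other gene lay within a distance of 1. MEE23 stood at 2.07 and 2.54 CPM in stk and at 35.5 and 6.50 CPM in wild type. Nearest to HAE were AT3G26510 (0.49) and AT1G69450 (0.56), with 8 genes within 1, and nearest to CST were AT1G21140 (0.37) and NAC010 (0.42), with 21 genes within 1. HSL2 had 1119 genes within 1, the nearest being AT5G13410 (0.19) and DAL1 (0.21). These are descriptions over 4 libraries.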

How the data were processed

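Raw read counts per gene, with a column for each library, are what the authors deposited. Tools named in the submitters' processing notes, which give no role for any of them, include Trimmomatic 0.38 for one, then STAR 2.7.0, then featureCounts 1.6.3, and also DESeq2 1.38.3. Not given in the sources used here: the build, annotation, strand setting and rule for multi-mapping reads. Reads of close paralogs could therefore have been split or dropped. Each of the 37051 locus identifiers was found in the TAIR10.1 gene table, the source of names, coding lengths and overlaps. Of 101 list entries, those whose name the reference does not give were left out (10).

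Genotypes were compared with edgeR 4.0.16 (quasi-likelihood test; R 4.3.3) on all 4 libraries, using TMM factors, the default filterByExpr filter on low counts (which left 18092 genes), a model of genotype alone and Benjamini-Hochberg adjustment over all genes tested at 0.05. Scripts were tested on simulated data. DESeq2 1.42.0 and limma-voom (limma 3.58.1), other scalings and filters, a replicate block and leaving out each library were alternatives. Standard errors are the log2 fold change divided by the root of its F statistic. P-values measure the spread between these pooled samples. Depth ranged from 4033589 to 12099218 counts. Intervals and floors cover counting error only. The named genes are the 7 members, any gene of the pathway lists, and the 2 genes nearest in profile to each tested member. Polygalacturonase loci were taken from the reference annotation, a list added later. The members and lists were chosen with earlier results of these data known.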

Additional observations from a re-analysis of the deposited data

How the results depend on the processing

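The number of genes called over the whole table moved with the setting, from 1 in edgeR to 168 with DESeq2, 37 with limma-voom, 275 without a filter on low counts, 0 at a mean of at least 5 CPM and 169 with the replicate block. With 1 library left out it lay between 5 and 198. A genotype with 1 library left is assumed to vary like the other. The polygalacturonase family had 0 calls, and 1 with DESeq2 (ADPG1). It also had 1 (AT1G70500) without a filter, with the replicate block and without wild-type replicate 1 (0 to 1 in edgeR with a library left out). The named polygalacturonases and all pathway lists together had 0 calls, and 1 with DESeq2. DESeq2 with a library left out called HAE, AGL15 and AT1G70500 (4.20) without stk replicate 2, AT1G70500 (7.32) without wild-type replicate 1, SHP1, ADPG1 and AT1G10640 (9.14) without wild-type replicate 2, and none of these lists without stk replicate 1.

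HAE, CST and ADPG1 kept their direction in all 15 alternatives. For CST and ADPG1 the genotypes did not overlap, so leaving out a library could hardly reverse them. The other alternatives rescale or filter the same 4 libraries. HAE ranged from -6.84 to -0.58 with a library left out in edgeR and from -6.92 (called) to -0.64 in DESeq2, CST from 1.73 to 4.07, and ADPG1 from -4.61 to -2.03 in edgeR and from -4.64 (called) to -2.07 in DESeq2. DESeq2 on all libraries also called ADPG1 (-3.86). HSL2 reversed without wild-type replicate 2 (-0.24 in edgeR and -0.26 in DESeq2) and ranged from -0.24 to 0.62 with a library left out in edgeR and from -0.26 to 0.58 in DESeq2. PGAZAT reversed in DESeq2 without stk replicate 2 (-1.95). The causes were not tested. These DESeq2 alternatives were added after the data were seen. Replicate numbers are not stated to mark a shared batch, and the difference between replicates 1 and 2 correlated at 0.254 across genes between the genotypes. With the replicate block HAE was at -2.85, CST at 2.91 and ADPG1 at -3.31, none called. Depth limits IDA in stk replicate 1, where 2.54 counts are expected at the level of stk replicate 2. In the wild-type libraries 3.66 and 7.17 counts are expected, above the floor of 3 counts, and both held 0. IDA, PGAZAT and QRT2 lay under the count filter, and stk replicate 2 held all or nearly all of their counts.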
